A study of Mus musculus with 30 samples.

Results

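mmu-miR-1 and mmu-miR-133a were chosen by name, as 2 of the 566 mouse miRNA probes on the panel, and were followed through all 30 samples. The samples form 8 groups of male C57BL6 mice or their cells. Mesenteric adipose tissue (MAT), the fat along the gut, and abdominal aorta (AA) came from animals kept between 4 and 20 weeks of age on normal chow (NCD) or on a diet with 60% fat (HFD), with 5 MAT and 3 AA samples per diet. Cultured adipocytes (MAT-Ad, 4 samples per treatment) had been differentiated from the stromal cells of mesenteric fat of NCD-fed mice and exposed for 24 h to PBS or to lipopolysaccharide at 1 µg/ml (LPS, a bacterial wall component). Exosomes (MAT-Ad-EX, 3 samples per treatment) are vesicles collected from the medium of such cultures. The labels do not say which samples came from separate animals or cultures, so a p-value here sets a difference against the scatter of these samples, and that scatter may be technical.

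miR-1 and miR-133a are the classic miRNAs of striated muscle, the skeletal and cardiac kind. They are cut from shared primary transcripts whose genes are switched on by the muscle factors SRF, MEF2 and MyoD. miR-1 favours muscle differentiation, and miR-133a restrains SRF and favours the growth of muscle precursors. In adipose tissue miR-133 is known as a repressor of Prdm16, the regulator of brown fat identity. Smooth muscle, the muscle of vessel and gut walls, is better known for miR-143 and miR-145, though it also holds some miR-1 and miR-133a.

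2 close relatives show the seed sequences of the families, the bases 2 to 8 that pair with target mRNAs. miR-206, a miRNA of skeletal muscle, has the seed of miR-1, and miR-133b has that of miR-133a. Their mature RNAs from RefSeq (GRCm38.p6) are given 5′ to 3′ with the seed in capitals, because the levels of these relatives are set beside the members further on.
mmu-miR-206-3p: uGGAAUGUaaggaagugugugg
mmu-miR-133b-3p: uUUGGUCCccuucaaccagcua

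One of the shared primary transcripts is the non-coding RNA Mir1a-1hg on mouse chromosome 2 (GRCm38.p6, 180385604 to 180401802), which contains the hairpins Mir1a-1 (180389048 to 180389124) and Mir133a-2 (180398379 to 180398482). Its promoter in RefSeq is shown because both miRNAs rose and fell together across fat samples, though its part in that pattern was not tested. The window runs from 250 bases before to 50 after the annotated start (chr2:180385354-180385653, plus strand). Capitals mark the E-boxes (CANNTG on either strand), the kind of site that MyoD binds.
Mir1a-1hg promoter: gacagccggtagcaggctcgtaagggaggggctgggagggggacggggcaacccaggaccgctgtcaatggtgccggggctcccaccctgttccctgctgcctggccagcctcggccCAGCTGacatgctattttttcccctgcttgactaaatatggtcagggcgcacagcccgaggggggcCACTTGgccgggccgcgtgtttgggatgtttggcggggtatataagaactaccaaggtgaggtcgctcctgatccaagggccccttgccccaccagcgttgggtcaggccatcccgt

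The window held 2 E-boxes, and 72.3% of the 32851 promoters of the same length hold at least 1. No match to the MEF2 or the SRF (CArG box) consensus was found in it, against 3.19% and 1.63% of all promoters.

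Values are the deposited signals, in which a background had been taken off and the lowest value is close to 1. A value counted as detected above 29.8, which is 2 SD over the mean of all 240 values of the negative control probes. Total miRNA signal ran from 270569 to 496704 in MAT, from 174770 to 287152 in AA, from 70149 to 142968 in MAT-Ad and from 1796 to 33349 in MAT-Ad-EX, so exosome values are the least precise. The smooth muscle markers miR-143 and miR-145 summed to 57994 to 109704 in AA, the tissue of a vessel wall. Endothelial miR-126-3p and miR-126-5p were below the limit in all 14 culture samples.

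miR-1 was detected in all 16 tissue samples, at 112 to 1539, and in none of the 14 culture samples. miR-133a was detected in 15 of the 16 tissue samples, at 25.3 to 304, and in no culture sample. In bulk samples like these, fewer cells of a type and less RNA per cell cannot be told apart.

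**Figure D1:**
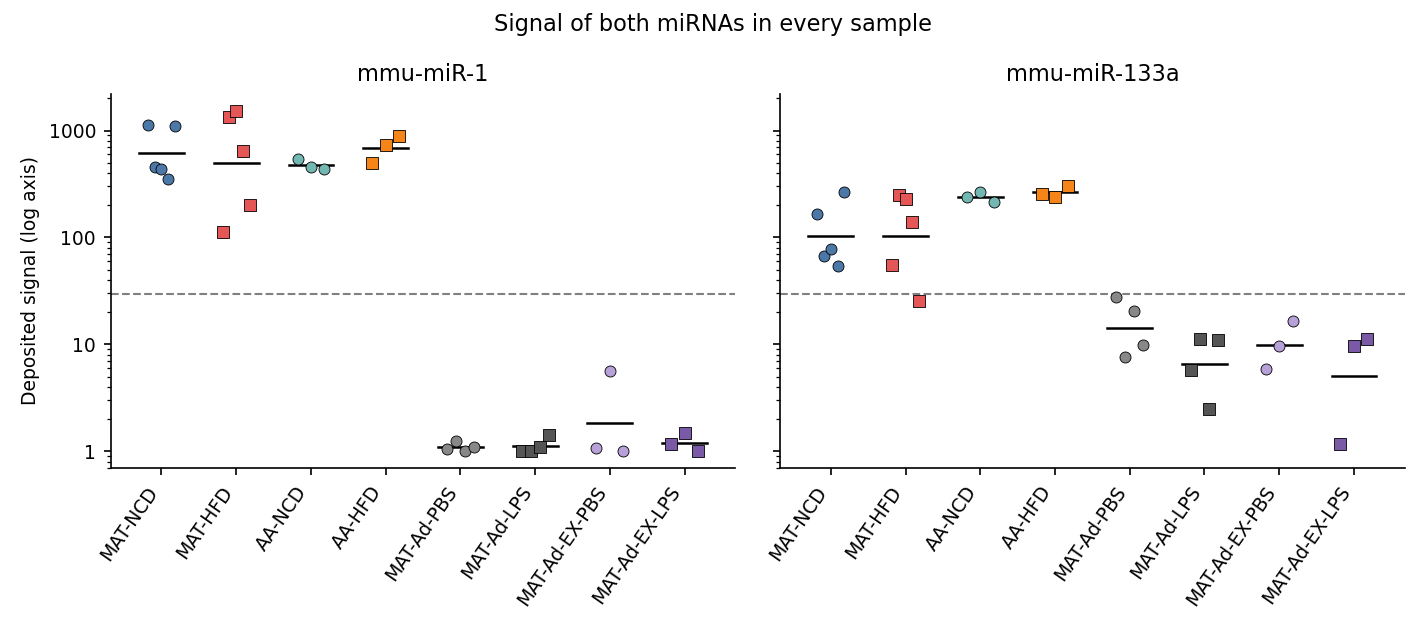
Deposited signal of mmu-miR-1 (left) and mmu-miR-133a (right) in each of the 30 samples by group, on a log axis. Bars are geometric means and the dashed line is the detection limit of 29.8. All tissue samples lie over the line except MAT-HFD replicate 5 for miR-133a, and all culture samples lie under it.

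In MAT on chow miR-1 read 1120, 453, 440, 355 and 1115 in replicates 1 to 5. After HFD it read 112, 1328, 1539, 644 and 202. Each diet thus held high and low samples, and the HFD range enclosed the whole chow range.

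The means were 697 ± 386 on chow and 765 ± 647 after HFD (SD, n = 5 each). On the log2(signal + 1) scale the order was the opposite, with means of 9.27 and 8.96, since the lowest HFD samples weigh more there. The difference, HFD less chow, was -0.31 ± 0.70 (SE), and for the ratio of the groups the 95% interval ran from 0.279 to 2.32 (limma adjusted p = 0.76). The sign of this difference turned without HFD replicate 1 (0.22) or HFD replicate 5 (0.0099), the 2 samples with the least miR-1.

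miR-133a in MAT read 166, 66.8, 77.2, 54.3 and 266 on chow. After HFD it read 55.6, 251, 230, 140 and 25.3, the last below the detection limit. Again the samples of each diet overlapped, and the same samples were high for both miRNAs: chow replicates 1 and 5 and HFD replicates 2 and 3.

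Its means were 126 ± 89.9 and 140 ± 101 (SD, n = 5 each), with a log2 difference of -0.02 ± 0.65 (SE) and an interval of the ratio from 0.370 to 2.63 (limma adjusted p = 0.98). Of the 157 miRNAs tested for diet in MAT, 15.3% passed, 23 higher and 1 lower after HFD (18 and 5 after median centring, 15 and 9 after scaling to the top 100 probes), and neither member was among them. The data therefore leave room for a rise or a fall of more than 2-fold in either member.

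In AA miR-1 read 545, 456 and 436 on chow and 492, 736 and 898 after HFD. HFD replicates 2 and 3 lay above all chow samples and replicate 1 among them. The means were 479 ± 57.7 and 709 ± 204 (SD, n = 3 each), 1.44-fold apart with an interval from 0.910 to 2.28 (limma adjusted p = 0.44).

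miR-133a was steadier in AA, at 238, 264 and 217 on chow and 253, 241 and 304 after HFD. The means of 240 ± 23.7 and 266 ± 33.4 (SD, n = 3 each) were 1.11-fold apart, with an interval from 0.800 to 1.54 (limma adjusted p = 0.84). Of 99 miRNAs tested in AA 0% passed with limma, and 11 had an unadjusted p under 0.05, neither member among them. The sign for miR-133a turned after median centring (-0.05) and top-100 scaling (-0.08).

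The diet effect did not pass as different between the tissues for either member. The log2 difference of differences, AA less MAT, was 0.84 ± 1.03 (SE) for miR-1 and 0.17 ± 0.94 for miR-133a (limma adjusted p = 0.97 and 0.98), in a comparison in which 1.71% of 175 miRNAs passed, 0 with a positive and 3 with a negative difference (1 and 3 after either rescaling).

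miR-133a had higher means in AA than in MAT on either diet, while miR-1 did not lie apart between the tissues. Ordered by mean signal, miR-133a was highest in AA after HFD, followed by AA on chow, MAT after HFD and MAT on chow, and the ranges of neighbouring groups overlapped at each step. For miR-1 the order was MAT after HFD, AA after HFD, MAT on chow and AA on chow, again with overlapping ranges.

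The AA to MAT ratio of miR-133a was 2.27 on chow (95% interval 0.848 to 6.09, limma adjusted p = 0.12) and 2.55 after HFD (0.953 to 6.85, adjusted p = 0.073). The call turned on single fat samples. It passed on chow without MAT chow replicate 5 (adjusted p = 0.049) and after HFD without MAT HFD replicate 2 (0.032) or 3 (0.037). For miR-1 the log2 difference was -0.37 ± 0.73 (SE) on chow and 0.47 ± 0.73 after HFD (adjusted p = 0.66 and 0.56).

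Most of the tested miRNAs were lower in AA. Of the 175 tested 73.1% passed on chow, 3 higher and 125 lower in AA, and 78.9% after HFD, 5 higher and 133 lower, and the median log2 difference over all of them was -2.10 and -2.02. In order from the most AA-high difference, miR-133a stood at place 4 of 175 on chow and 7 after HFD, and miR-1 at places 35 and 14. The smooth muscle miR-145 had log2 differences of 0.84 and 0.82, between those of the members. The 4 leukocyte probes summed to 405 to 1327 in AA and to 4549 to 26549 in MAT. In AA the highest mean of the 4 was that of miR-142-5p, 452 on chow and 301 after HFD. That probe is a poor guide to leukocytes, as given further on. The part of such markers in the differences between the tissues was not tested. LIG_POS_A, a positive control probe by its name, also differed. It read 50714, 4295 and 5946 in AA on chow, 6045 to 8159 in AA after HFD and 15316 to 30418 in MAT. A technical part in the differences was not tested.

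Relative to the rest of the miRNA signal, miR-133a was higher in AA. It made up 0.118% ± 0.0322 of the total miRNA signal in AA on chow and 0.0395% ± 0.0253 in MAT on chow, and 0.105% ± 0.0114 against 0.0336% ± 0.0215 after HFD. The lowest AA share, 0.0828%, lay above the highest MAT share, 0.0759%. How many of the other miRNAs had shares that lay apart in this way was not counted. Whether this is particular to miR-133a therefore cannot be said. Differences between the tissues were common, with 107 of 175 miRNAs passing on chow and 109 after HFD once median centred. After median centring, which balanced the calls over all miRNAs to 53 higher and 54 lower on chow and 55 and 54 after HFD, its log2 difference was 3.01 on chow and 3.38 after HFD (limma adjusted p = 0.00096 and 0.00033).

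miR-1 shares overlapped, at 0.231% ± 0.0355 against 0.221% ± 0.117 on chow and 0.274% ± 0.0483 against 0.182% ± 0.149 after HFD. Median centring turned the sign of its chow difference to 1.46 (adjusted p = 0.077) and gave 2.50 after HFD (0.0053). Tissue goes with a letter in the sample descriptions (A for MAT, C for AA), so tissue and whatever that letter stands for cannot be told apart.

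**Figure D2:**
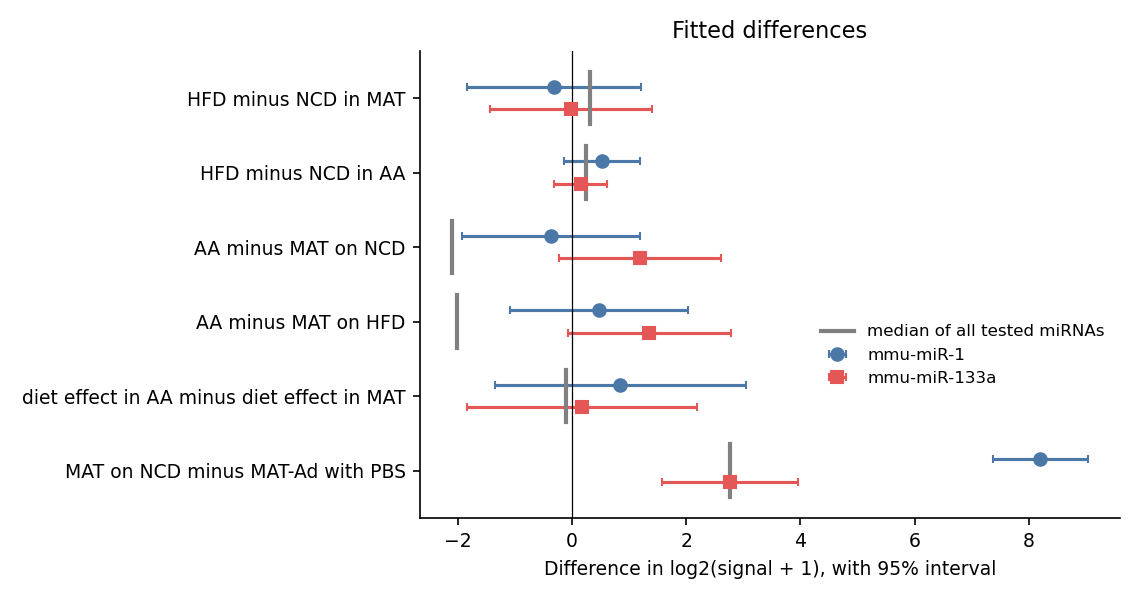
Fitted differences in log2(signal + 1) with 95% intervals for mmu-miR-1 (circles) and mmu-miR-133a (squares) in 6 comparisons, with the median difference of all tested miRNAs as a grey bar. In both AA to MAT comparisons the members lie near 0 or above it while the median lies near -2. In the comparison with PBS adipocytes the members' points and intervals rest on culture values under the detection limit and are not read.

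The balance between the members differed between the tissues. The ratio of (miR-1 + 1) to (miR-133a + 1) in a sample does not depend on the sample's scaling factor apart from the added 1. It compares 2 probes of unequal efficiency, so only its change between samples can be read. The 15 tissue samples with both miRNAs over the detection limit were used.

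In MAT on chow the ratio was 6.73, 6.70, 5.63, 6.45 and 4.17 in replicates 1 to 5. After HFD it was 1.99, 5.28, 6.66 and 4.58 in replicates 1 to 4. In AA it was 2.29, 1.73 and 2.01 on chow and 1.94, 3.04 and 2.95 after HFD. Of the 9 fat samples all but HFD replicate 1 lay above every aorta.

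The ratio was 2.19-fold lower in AA, with a log2 difference of -1.13 (exact permutation within diet, two-sided, p = 0.0026, 0.0077 after Benjamini-Hochberg adjustment over 3 ratio tests). A replicate block on HFD was added after seeing the data. Tissue labels were swapped only within the 3 same-numbered pairs on HFD, while the chow samples were still permuted freely. MAT HFD replicate 4, with no same-numbered aorta, was left out. The log2 difference was -1.11 (exact permutation p = 0.0022 over 448 arrangements, the smallest that this allows, adjusted 0.0067). This p thus rests in part on unpaired chow samples. The ratio was lower in the aorta of 3 of 3 pairs, by log2 differences from -1.18 to -0.034. In the pair of replicate 1 it was thus nearly equal, at 1.94 in AA and 1.99 in MAT. For the permutation within diet, without pairs, the adjusted p stayed between 0.0027 and 0.025 when any 1 of the 16 tissue samples was left out. Diet did not separate the ratio in MAT (log2 difference -0.47, exact permutation p = 0.22, adjusted 0.30) or in AA (0.38, exact p = 0.30, adjusted 0.30), where 3 against 3 samples cannot give a p under 0.10.

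**Figure D3:**
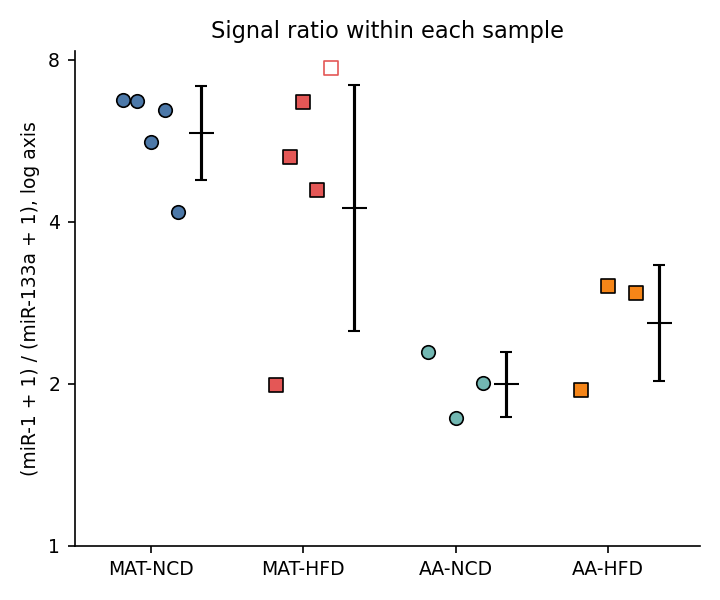
Ratio of mmu-miR-1 to mmu-miR-133a signal (each plus 1) per tissue sample on a log axis, with the geometric mean and 1 SD of the log2 ratio beside each group. The open square is MAT-HFD replicate 5, with miR-133a below the detection limit and outside the mean. Aortas lie between 1.73 and 3.04, and the fat samples with both miRNAs detected between 1.99 and 6.73.

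Both miRNAs varied together between fat samples. With the group means removed, log2 signals of miR-1 and miR-133a correlated over the 10 MAT samples at Pearson r = 0.90 (permutation p = 0.00095) and Spearman rho = 0.87 (permutation p = 0.0025). After Benjamini-Hochberg adjustment over 4 coefficients these p were 0.0038 and 0.0050. Without HFD replicates 1 and 3, the 2 samples farthest from the median of miR-1, r was 0.98.

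In AA the relation could not be shown. Over the 6 samples r was 0.48 (exact permutation p = 0.35) and rho 0.60 (exact p = 0.24), adjusted 0.35 and 0.32, and without the 2 farthest samples r was 0.16. Both miRNAs ranged far less there, miR-133a from 217 to 304.

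**Figure D4:**
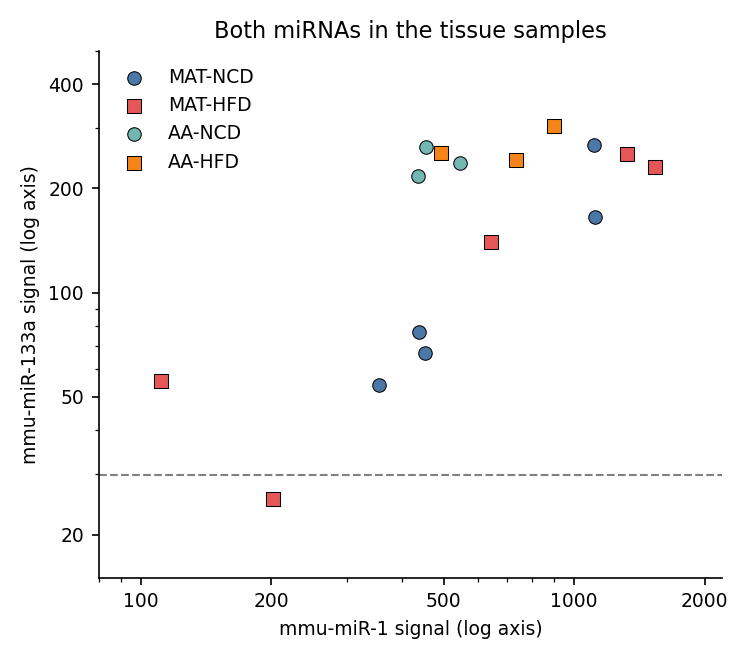
mmu-miR-133a against mmu-miR-1 signal in the 16 tissue samples, both on log axes, with the detection limit of 29.8 dashed. Fat samples spread along a rising band from 112 to 1539 for miR-1, and aortas form a cluster near 217 to 304 for miR-133a.

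The fat samples rich in the members were also rich in smooth muscle miRNAs. miR-145 read 18266 to 70869 in MAT on chow and 11773 to 74464 after HFD, and its deviations correlated with those of miR-133a at r = 0.98 and of miR-1 at r = 0.87 (n = 10, a description over samples of the same tissue, on 1 scale and with common scaling factors). miR-143, made from the same transcript as miR-145, followed miR-1 at r = 0.95 and miR-133a at r = 0.92.

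Of the 4 leukocyte probes, miR-150, miR-142-3p and miR-223 had a negative r with both members, and miR-142-5p a positive one. Lymphocyte miR-150 was 2732 in chow replicate 5, 2658 in HFD replicate 2 and 3321 in HFD replicate 3, the samples highest in miR-133a, and 9122 to 22178 in the 5 samples with miR-133a under 100, but 14634 in chow replicate 1, which was also high in both members. Its r was -0.79 with miR-133a and -0.81 with miR-1, and that of miR-142-3p was -0.84 and -0.67. miR-223 had an r of -0.37 and -0.11, and miR-142-5p one of 0.64 and 0.43. The mean of miR-142-5p was 250 in MAT on chow, 237 in PBS adipocytes and 207 in PBS exosomes. In those 2 culture groups the other leukocyte probes were below the limit in every sample, so miR-142-5p is a poor guide to leukocytes here.

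Over the whole marker lists, the 2 smooth muscle probes summed to 16036 to 92217 in MAT after HFD and the 4 leukocyte probes to 5803 to 26549. On chow these sums were 24939 to 83721 and 4549 to 25461. The part of such differences in tissue make-up in the spread of miR-1 and miR-133a was not tested.

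**Figure D5:**
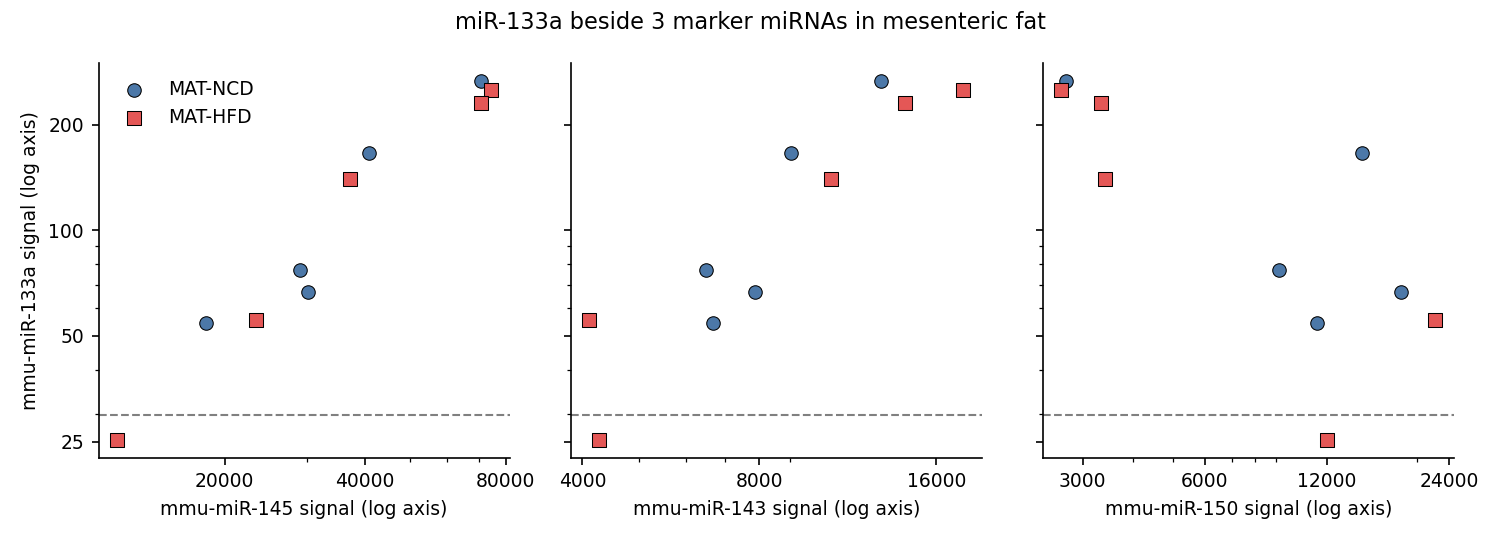
mmu-miR-133a against miR-145, miR-143 and miR-150 in the 10 fat samples, all on log axes, circles for chow and squares for HFD. miR-133a rises with both smooth muscle miRNAs, from 25.3 at a miR-145 of 11773 to 251 at 74464, and falls as miR-150 rises.

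Among 145 probes over the limit in at least 8 of the 16 tissue samples, the ones most like miR-1 by Pearson r of deviations from group means were miR-143 (0.91), miR-133a (0.89), miR-145 (0.85), miR-31 (0.80) and let-7c (0.80). For miR-133a they were miR-145 (0.94), miR-1 (0.89), miR-143 (0.83), miR-100 (0.79) and miR-125a-5p (0.76). Each member was thus the second closest to the other, beside the smooth muscle pair. For miR-133a the link to that pair was seen in fat and not in aorta. Within the 6 aortas its r was 0.14 with miR-145 and 0.13 with miR-143, while that of miR-1 was 0.68 and 0.87.

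Over all 30 samples, where the contrast of tissue and culture dominates, the closest of 184 probes to miR-1 were miR-193b (0.98), miR-126-3p (0.96), miR-451 (0.95), miR-486 (0.95) and miR-204 (0.94), with miR-133a at place 8 (0.92). For miR-133a they were miR-193b (0.92), miR-1 (0.92), miR-204 (0.85), miR-126-3p (0.85) and miR-140 (0.83). miR-204 showed the shared pattern plainly, with 141 ± 44.2 in MAT on chow (n = 5), 138 ± 36.0 in AA on chow (n = 3) and 9.40 ± 3.50 in PBS adipocytes (n = 4), where no sample was over the limit.

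Adipocytes grown from the same fat had no measurable miR-1. In MAT-Ad it read 1.04, 1.26, 1.00 and 1.09 with PBS and 1.00, 1.00, 1.09 and 1.42 with LPS, each the lowest value of its sample. MAT on chow was thus at least 20.7-fold higher than PBS adipocytes and AA after HFD at least 23.1-fold, with the culture values set to the detection limit.

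In the comparison of MAT on chow with PBS adipocytes 80.8% of 151 miRNAs passed, 116 higher and 6 lower in MAT (71 and 42 after median centring, 37 and 71 after top-100 scaling), with a median log2 difference of 2.77. Both members entered that comparison through their MAT samples alone, since no culture sample was over the limit. Their calls there were thus largely set by the filter. Only the bounds on their difference are read, and these hold for the deposited signal without rescaling.

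miR-133a was under the detection limit in culture but seldom at the floor. PBS adipocytes read 27.6, 7.54, 20.6 and 9.97 and LPS adipocytes 5.79, 11.3, 2.46 and 11.03, all under the detection limit. On the deposited signal without rescaling, MAT on chow was at least 3.50-fold higher and AA on chow at least 8.01-fold higher than PBS adipocytes. Total miRNA signal was also higher in both tissues than in MAT-Ad. As a share of that total, miR-133a overlapped between MAT on chow (0.0186% to 0.0759%) and PBS adipocytes (0.00771% to 0.0328%).

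The fitted log2 difference of miR-133a between MAT and PBS adipocytes rests on culture values under the limit, so it is given without being read. It was 2.77, at place 76 of 151 and so itself the median of the tested miRNAs. With the culture values set to the limit it was 1.78. After median centring it was 0.69 and after top-100 scaling -0.46, so even the sign of this fitted value depended on the scaling. Sample kind goes with the letter in the descriptions here too (A for MAT, B for MAT-Ad), so the 2 cannot be told apart. The smooth muscle probes summed to 1998 to 3508 in PBS adipocytes, below every MAT sample, and their part in the difference was not tested.

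Exosomes held neither miRNA above the detection limit. miR-1 read 1.08, 5.69 and 1.00 with PBS and 1.16, 1.47 and 1.00 with LPS. miR-133a read 5.94, 9.76 and 16.5 with PBS and 1.16, 9.74 and 11.1 with LPS. An effect of LPS could not be measured for either member in cells or exosomes, and neither entered those tests.

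The other 5 striated muscle miRNAs of the panel were nearly absent from every group. miR-133b was below the limit in all 30 samples, with a highest tissue value of 9.60, as were the cardiac miRNAs miR-208a (highest 19.8), miR-208b (2.40) and miR-499 (3.32), which are encoded within myosin genes. The panel names give no arm for these probes.

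miR-206 passed the limit in 1 of 30 samples. In AA it read 9.89, 3.50 and 1.00 on chow and 31.2, 18.4 and 24.7 after HFD, so the HFD aortas lay above the chow ones, but 5 of these 6 values were under the limit and miR-206 was not tested. In MAT its highest value was 4.53. Of the 7 striated muscle probes only miR-1 and miR-133a were thus detected in more than 1 tissue sample, while skeletal muscle markers miR-206 and miR-133b were at or below the limit in the fat samples with the most miR-1.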

How the data were processed

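The authors deposited 1 table of signal values, 626 probes by 30 samples. Per the labels' protocols, RNA at 30 to 40 ng/µl was hybridised with probes carrying a fluorescent barcode and biotin, and exosome RNA was extracted with another kit than tissue and cell RNA. The software is not given in the sources used here, nor are its settings. Low values under 60 showed that a background had been removed and miRNA values multiplied by 1 factor per sample (0.6025 to 2.40), so the signal is no count and no count test was used. Negative controls lack that factor, which shifts the detection limit of 29.8 between samples.

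Tests across all mouse miRNAs used limma 3.58.1 (R 4.3.3) on log2(signal + 1), for miRNAs detected in no fewer of the fitted samples than the smallest group has, with Benjamini-Hochberg adjustment over every tested miRNA and a threshold of 0.05 on the adjusted p. Tissue comparisons were fitted on the 4 tissue groups, others on their own 2. A bound takes the dimmer group's values as at least the limit. Ratios and correlations were tested by permutation (scipy 1.17.1, 100000 draws or exact). The procedures were tested on simulated data.

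Named miRNAs are both members, the other 5 striated muscle probes, the 5 closest probes by correlation and fixed cell type markers. The members and lists were chosen with earlier results of these data known. Same-numbered samples were checked for pairing by correlating deviations from group means. In MAT after HFD against AA after HFD all 3 same-numbered pairs exceeded 0.1 (0.21 to 0.33), and with the number as a block the log2 difference for miR-133a was 0.84 (limma adjusted p = 0.17) against 1.35 without it. In the other comparisons tested not every pair did. Alternatives were a pseudocount of 16, no filter, median centring, scaling to the top 100 probes, undoing the authors' factor, setting low values to the limit, the replicate block, a doubled limit for ratios and leaving out each sample. 3 alternatives for the ratio were added after seeing the data.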

Additional observations from a re-analysis of the deposited data

How the results depend on the processing

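Over 17 values and 297 alternatives, 267 kept direction and side of the threshold. In the rest 19 changed sign, 11 newly passed and 2 lost their call, 1 new pass and 1 lost call being among the changes of sign. Values under the detection limit restrict what can be read. This held for miR-133a in 1 of 10 fat samples and for both members in every culture sample.

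The lower ratio of miR-1 to miR-133a in AA held in all 21 alternatives, with log2 differences from -1.31 to -1.02, among them -1.23 with the mean culture signal of miR-133a taken off, -1.22 with all 16 tissue samples and -1.11 with the replicate block on HFD, all chosen after seeing the data. The correlation of the members in MAT stayed between 0.89 and 0.98 in its 3 alternatives.

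The diet differences in MAT had no stable sign, and the count of called miRNAs there, 24, was 54 with the authors' factor undone and 8 with the replicate block, where same-numbered samples share only a number. For miR-133a it was 0.024 with a pseudocount of 16, 0.22 with the authors' factor undone and 0.026 with low values set to the limit, and -0.34 to 0.48 without 1 sample. For miR-1 it ran from -0.72 to 0.22 without 1 sample. In AA miR-133a was -0.050 after median centring and -0.085 after top-100 scaling. Its difference of diet effects was -0.48 with the replicate block and ran from -0.33 to 0.49 without 1 sample.

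Scaling decided the AA to MAT calls, since centring and top-100 scaling remove the general difference (median -2.10 on chow before, -0.28 and -0.12 after). After top-100 scaling miR-133a was 3.22 on chow and 3.40 after HFD, and miR-1 was 1.68 (limma adjusted p = 0.042) and 2.54. After median centring miR-133a was 3.01 and 3.38, and miR-1 was 1.46 and 2.50. On chow the replicate block gave 1.32 for miR-133a (adjusted p = 0.04996), although those samples share only a number. Without 1 sample miR-133a ran from 0.95 to 1.52 on chow and from 0.86 to 1.67 after HFD, and miR-1 after HFD from -0.062 (without MAT HFD replicate 1) to 0.88. Between MAT and PBS adipocytes miR-133a was 0.69 after median centring and -0.46 after top-100 scaling, with every culture value under the limit. The replicate block changed no other call of a member in the limma comparisons, and it was not run for the correlations. Where no construction is named, the cause was not tested.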

Other observations

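Probes known from brown fat and adipocytes (miR-193b, miR-365, miR-455, miR-203 and miR-378), set beside miR-133a as a repressor of brown fat identity, summed to 3002 to 4562 in MAT on chow and to 2218 to 4521 after HFD. In cultured adipocytes they summed to 172 to 474, and in aorta to 667 to 1349. Over the 10 fat samples the r of deviations with miR-133a and with miR-1 was 0.65 and 0.81 for miR-378, 0.60 and 0.59 for miR-365, and 0.01 with either for miR-203, as a description. miR-193b and miR-455 were not over the limit in all of these samples and were left out.

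miR-133a was also set against the smooth muscle miR-145 of the same sample, a comparison chosen after the values were seen. Its ranges in fat and aorta overlapped, with the higher median and the higher maximum in aorta. Per 1000 units of miR-145 signal, miR-133a was 2.15 to 4.07 in the 10 fat samples (median 3.11) and 2.57 to 5.16 in the 6 aortas (median 4.48). The lowest fat value is that of HFD replicate 5, whose miR-133a was below the detection limit. miR-1 varied more on that scale, from 4.78 to 27.5 in fat (median 17.2) and from 5.90 to 13.2 in aorta (median 9.28). HFD replicate 1 of MAT, which had the lowest ratio of miR-1 to miR-133a among fat samples (1.99), also had the least miR-1 (112) and the most miR-150 (22178) of the 10.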
